A study of Rattus norvegicus with 16 samples.

Results

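The cholesterol synthesis genes described here were chosen by name: Hmgcs1, Idi1, Fdps, Fdft1, Sqle, Lss and Cyp51, which code for enzymes, and Insig1, which codes for a regulator of the same pathway. Their probe sets were found by gene symbol in the platform's probe annotation, and 7 of the 8 genes had one, with 11 probe sets among the 15923 of the array (10412 genes named by a single symbol). Of these, 10 lay above the intensity limit for testing (39.3 in at least 4 arrays) and were among the 10078 probe sets tested. Hmgcs1 was not analysed here. None of the 8 genes codes for a protein of LDL uptake, so the set is called the cholesterol synthesis genes, and uptake genes are described separately as a list.

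The study profiled isolated rat pancreatic islets with an expression array after 2 steps of treatment. Islets received an adenovirus encoding PPARγ (peroxisome proliferator-activated receptor gamma, a nuclear receptor) or a null adenovirus, both at 50 viral particles per cell for 32 h. They then spent 16 h in the compound GW347845, a PPARγ agonist, at 200 nM, or in 0.004% DMSO as the vehicle. The groups were PPARγ virus with GW347845 (4 arrays), PPARγ virus with vehicle (4 arrays), null virus with GW347845 (3 arrays) and null virus with vehicle (3 arrays). All groups carried a virus, so an uninfected islet was no part of these comparisons. Whole islets hold several cell types, and fewer cells of a type and less RNA per cell cannot be told apart in such bulk RNA. The sources used here give neither the age and strain of the animals, nor the species of the viral PPARγ cDNA, nor whether replicates were separate islet preparations, so the p-values measure only the spread between these arrays, which may be technical.

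Cells build cholesterol from acetyl-CoA through the mevalonate pathway. Isopentenyl diphosphate isomerase (Idi1) and farnesyl diphosphate synthase (Fdps) make the isoprenoid farnesyl diphosphate, squalene synthase (Fdft1) joins it into squalene, squalene epoxidase (Sqle) and lanosterol synthase (Lss) turn squalene into lanosterol, and lanosterol demethylase (Cyp51) starts its conversion to cholesterol. The SREBP transcription factors raise these genes together when sterol in the endoplasmic reticulum is low. Insig1 is an endoplasmic reticulum protein that holds the SREBP and SCAP complex back when sterol is plentiful, and its own gene is an SREBP target. In mouse adipose tissue, Insig1 is also known as a gene that responds to PPARγ agonists. In beta cells, the cholesterol content of membranes is known to affect insulin secretion.

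The promoters of the 4 genes with the largest differences described below are shown because shared SREBP control of this pathway acts through such sequences. They span 250 bases before to 50 bases after the transcription start, 5′ to 3′ on the gene's strand, from RefSeq on the rat build GRCr8, and 5 of the 7 measured genes (Insig1, Idi1, Fdps, Cyp51 and Lss) matched an entry. Capitals mark the CCAAT box (CCAAT or ATTGG), the GC box (GGGCGG or CCGCCC) and the E-box (CACGTG), each searched on both strands.
Insig1, chr4:8057720-8058019, minus strand: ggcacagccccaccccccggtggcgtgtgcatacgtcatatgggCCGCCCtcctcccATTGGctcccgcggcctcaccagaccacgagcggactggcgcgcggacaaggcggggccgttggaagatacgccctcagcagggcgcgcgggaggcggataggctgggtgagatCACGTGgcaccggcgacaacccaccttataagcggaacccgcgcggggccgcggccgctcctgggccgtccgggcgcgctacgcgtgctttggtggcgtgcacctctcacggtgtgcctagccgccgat
Idi1, chr17:66547475-66547774, minus strand: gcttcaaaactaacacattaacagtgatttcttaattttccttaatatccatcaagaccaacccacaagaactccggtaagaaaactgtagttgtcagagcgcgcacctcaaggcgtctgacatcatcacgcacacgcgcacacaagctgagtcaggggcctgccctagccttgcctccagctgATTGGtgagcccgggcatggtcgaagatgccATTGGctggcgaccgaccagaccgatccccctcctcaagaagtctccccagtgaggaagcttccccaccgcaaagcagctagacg
Fdps, chr2:176804767-176805066, minus strand: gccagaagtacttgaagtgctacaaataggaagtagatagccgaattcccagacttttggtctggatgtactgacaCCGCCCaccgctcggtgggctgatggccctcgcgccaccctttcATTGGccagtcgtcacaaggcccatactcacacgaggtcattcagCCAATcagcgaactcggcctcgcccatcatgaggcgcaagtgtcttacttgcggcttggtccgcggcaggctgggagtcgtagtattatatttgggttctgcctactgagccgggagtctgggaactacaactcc
Cyp51, chr4:30991443-30991742, plus strand: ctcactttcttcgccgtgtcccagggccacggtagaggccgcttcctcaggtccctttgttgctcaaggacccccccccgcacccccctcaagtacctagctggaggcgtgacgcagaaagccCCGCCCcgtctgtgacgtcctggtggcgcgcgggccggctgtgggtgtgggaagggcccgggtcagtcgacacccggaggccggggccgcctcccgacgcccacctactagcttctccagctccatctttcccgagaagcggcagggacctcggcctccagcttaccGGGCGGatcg
The CCAAT box was present in 4 of the 5 promoters, against 37.5% of 33469 rat promoters of the same length, and was missing from the Cyp51 window. The GC box was present in 4 of the 5, against 33.1% of all, and was missing from the Idi1 window. The E-box was found in the Insig1 window alone of the 5, against 6.42% of all. The letters TCACNCCAC of a sterol regulatory element (1.12% of all promoters) and the DR1 PPAR response element, searched as its consensus with 1 free base between the half-sites (0.0538% of all), were in none of the 5 windows on either strand. This says only that these exact letters were not in these windows.

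The viral gene checked the labels. Pparg (1369179_a_at) averaged 5510 ± 640 in PPARγ virus islets with GW347845 and 5593 ± 582 with vehicle (SD, n = 4 each), and 35.8 ± 13.7 and 33.0 ± 5.74 in null virus islets with GW347845 and with vehicle (SD, n = 3 each), in linear array intensity. The columns of null virus replicate 2 with GW347845 and with vehicle held identical values in all 15923 probe sets, so neither was used in the main fit, and statements on null virus arrays below are about the other 6. A further 4 arrays stood apart in the summed intensity of the islet hormones Gcg, Sst, Ppy and Pyy. These sums were 453 with GW347845 and 942 with vehicle in PPARγ virus replicate 2, and 2281 with GW347845 and 2401 with vehicle in PPARγ virus replicate 4, against 4569 to 9788 in the other 10 arrays. No marker of beta cells was at 0, and the summed beta markers (6 of 8 measured) ranged over 12708 to 17808, 13916 to 17110, 15768 to 16891 and 15188 to 20089 in PPARγ virus islets with GW347845, PPARγ virus islets with vehicle, null virus islets with GW347845 and null virus islets with vehicle. The GAPDH ratio of 3′ to 5′ signal ranged from 8.36 to 18.9 over the arrays. Sums of acinar, duct, stromal and leukocyte markers overlapped between all 4 groups, although for the mean virus effect the duct keratin Krt19 was called higher and the beta cell factor Pdx1 lower (1.08 and -0.52, log2). Krt19 was also called higher for PPARγ virus with GW347845 against null virus with vehicle, and for PPARγ against null virus with GW347845. Refits without replicate 2, and without replicates 2 and 4, of the PPARγ virus are given beside several results below, and the part of the hormone difference in any result was not tested.

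None of the 10 probe sets of the cholesterol synthesis genes passed the test (limma, Benjamini-Hochberg adjusted p under 0.05 over all tested probe sets) in any comparison. For PPARγ virus with GW347845 against null virus with vehicle, 0 of 10 were called while 0.665% of all tested probe sets (67) were. For PPARγ virus against null virus, 0 of 10 were called with GW347845 (background 0.705%, 71 probe sets) and 0 of 10 with vehicle (background 0.0397%, 4 probe sets). For GW347845 against vehicle, 0 of 10 were called in PPARγ virus islets (background 0.0595%, 6 probe sets) and 0 of 10 in null virus islets (background 0%, 0 probe sets). In the last comparison limma gave 95 probe sets (0.943%) at an unadjusted p under 0.05, and none of them was one of the 10. Averaged over compound and vehicle, the PPARγ virus called 154 probe sets (1.53%) and averaged over the viruses GW347845 called 2 (0.0198%), again with 0 of the 10. The mean virus effect counted the 2 arrays of a virus and number as independent, although they deviated together (r from 0.445 to 0.702). Its standard errors and p-values are therefore likely too small wherever they are given. The difference in the compound's effect between the viruses was called for 0 probe sets (0%), with 143 (1.42%) at an unadjusted p under 0.05.

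At an unadjusted p under 0.05, with no correction for the number of probe sets, a few of the 10 stood beside these backgrounds. The count was 1 of 10 (Insig1) for PPARγ virus with GW347845 against null virus with vehicle, where 8.48% of all tested probe sets reached that level. It was 2 of 10 (Insig1 and Cyp51) for PPARγ against null virus with GW347845 (background 9.19%) and 1 of 10 (Cyp51) with vehicle (background 4.43%). It was 3 of 10 (Insig1 and both Cyp51 probe sets) for the mean virus effect (background 12%). It was 0 of 10 for GW347845 against vehicle in PPARγ virus islets (background 2.93%) and for the mean compound effect (background 1.73%), and 1 of 10 (Cyp51) for the difference between the viruses. Arrays of the same virus and replicate number deviated together, and with that number as a block within each virus again 0 of 10 passed the adjusted test. The block called 0.397% of all probe sets for GW347845 against vehicle in PPARγ virus islets, 0% in null virus islets, 0.139% for the mean compound effect and 0.0496% for the difference between the viruses. At an unadjusted p under 0.05 the block gave 2 of 10 in PPARγ virus islets (Insig1 and Cyp51, background 8.71%), 2 of 10 in null virus islets (Idi1 and Fdps, background 4.08%), 2 of 10 for the mean compound effect (Idi1 and Fdps, background 7.19%) and 1 of 10 for the difference (Cyp51, background 5.8%).

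At shares this low, 0 of 10 is near the background, so the intervals say more than the counts. Changes are on the scale of log2(intensity + 4.6), and where a gene had several probe sets, the brightest stands for it. For PPARγ virus with GW347845 against null virus with vehicle, the 7 genes had a median change of 0.10, between -0.15 and 0.52, beside -0.03 over all tested probe sets. The 95% intervals of the 10 probe sets together reached from -0.55 to 0.94, which is 0.682-fold to 1.92-fold. For GW347845 against vehicle the median of the 7 genes was 0.08 in PPARγ virus islets, with intervals from 0.707-fold to 1.58-fold. In null virus islets that median was 0.04, with intervals from 0.686-fold to 1.93-fold. For PPARγ virus against null virus the median was 0.05 with GW347845 (intervals from 0.655-fold to 1.95-fold) and 0.07 with vehicle (intervals from 0.574-fold to 1.72-fold). A 2-fold rise or fall on this scale therefore lay outside every interval in these 5 comparisons, while smaller changes did not.

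**Figure D1:**
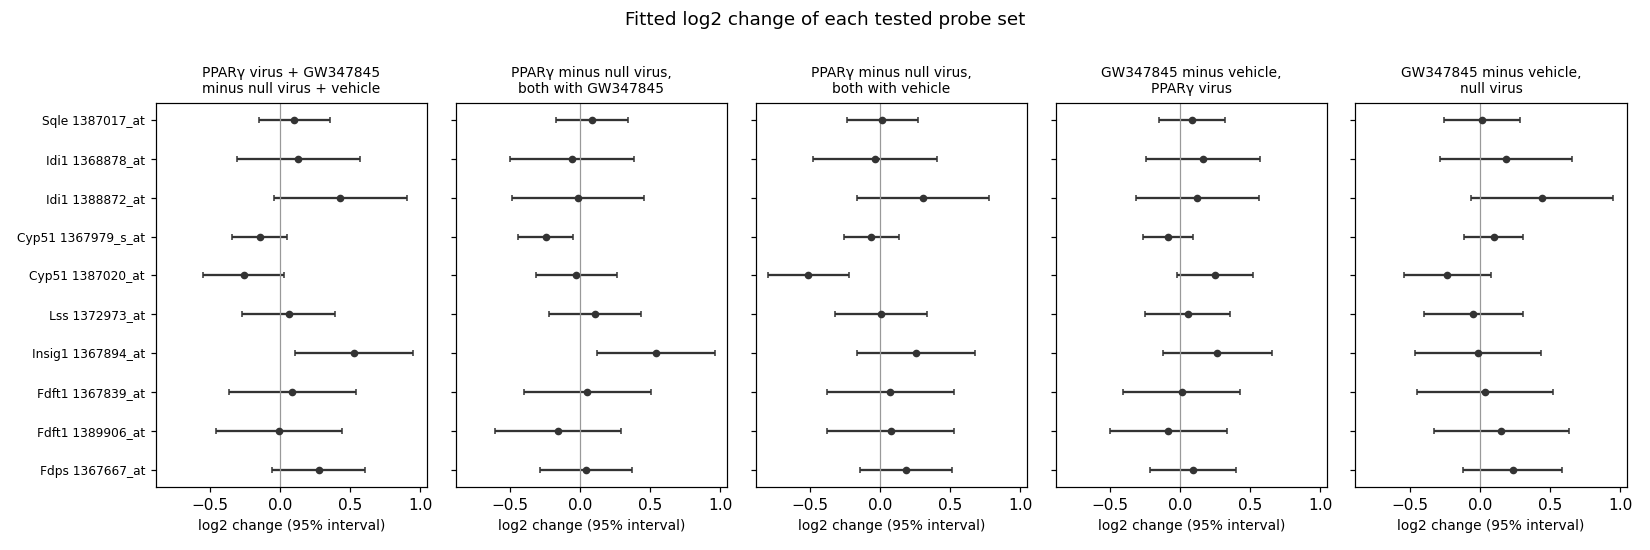
Fitted log2 change (x axis, on the log2(intensity + 4.6) scale) with its 95% interval for each of the 10 tested probe sets (rows), 1 panel for each of 5 comparisons between groups of 3 or 4 arrays. Most intervals span 0; those of Insig1 lie above 0 in the panels for PPARγ virus with GW347845 against null virus with vehicle and for both viruses with GW347845, and single Cyp51 probe sets lie below 0 in the panels of PPARγ against null virus.

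Insig1 had the largest mean virus change of the 7 genes, and it did not pass the test. Insig1 (1367894_at) read 207.5, 288.8, 259.9 and 222.4 in PPARγ virus islets with GW347845 (replicates 1 to 4) and 204.9, 247.0, 177.5 and 181.3 in PPARγ virus islets with vehicle. It read 195.8, 195.9 and 117.7 in null virus islets with GW347845 (replicates 1, 3 and 4) and 175.6, 199.9 and 133.4 in null virus islets with vehicle. Every array of PPARγ virus with GW347845 was above the 6 null virus arrays used, whereas the left-out null virus array, at 213.0, was above replicate 1 of PPARγ virus with GW347845, and PPARγ virus with vehicle overlapped both null virus groups. Replicate 4 was the lowest null virus array under either treatment.

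The Insig1 change was 0.52 ± 0.20 (log2, SE) for PPARγ virus with GW347845 against null virus with vehicle, or 1.44-fold, with an adjusted p of 0.426 (limma). With GW347845 in both, PPARγ virus against null virus gave 0.54 ± 0.20 (adjusted p = 0.359, limma), and with vehicle in both 0.26 ± 0.20 (adjusted p = 1.00, limma). The mean virus change was 0.40 ± 0.14 (adjusted p = 0.224, limma). GW347845 against vehicle gave 0.27 ± 0.18 in PPARγ virus islets and -0.02 ± 0.21 in null virus islets. Insig1 was higher with GW347845 in 4 of 4 pairs of PPARγ virus arrays of the same number and in 1 of 3 pairs of null virus arrays. With the replicate number as a block within each virus, the change in PPARγ virus islets had an adjusted p of 0.452 (limma), and the difference between the viruses, 0.28, an adjusted p of 0.884. PPARγ virus replicate 2, which had the lowest hormone sums, held the highest Insig1 value of both PPARγ virus groups. Without its 2 arrays the change for PPARγ virus with GW347845 against null virus with vehicle was 0.44 (adjusted p = 0.574, limma), and without replicates 2 and 4 it was 0.46 (adjusted p = 0.504). For PPARγ against null virus without replicates 2 and 4 it was 0.48 with GW347845 (adjusted p = 0.414), 0.18 with vehicle (adjusted p = 0.807) and 0.33 for the mean virus change (adjusted p = 0.303).

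**Figure D2:**
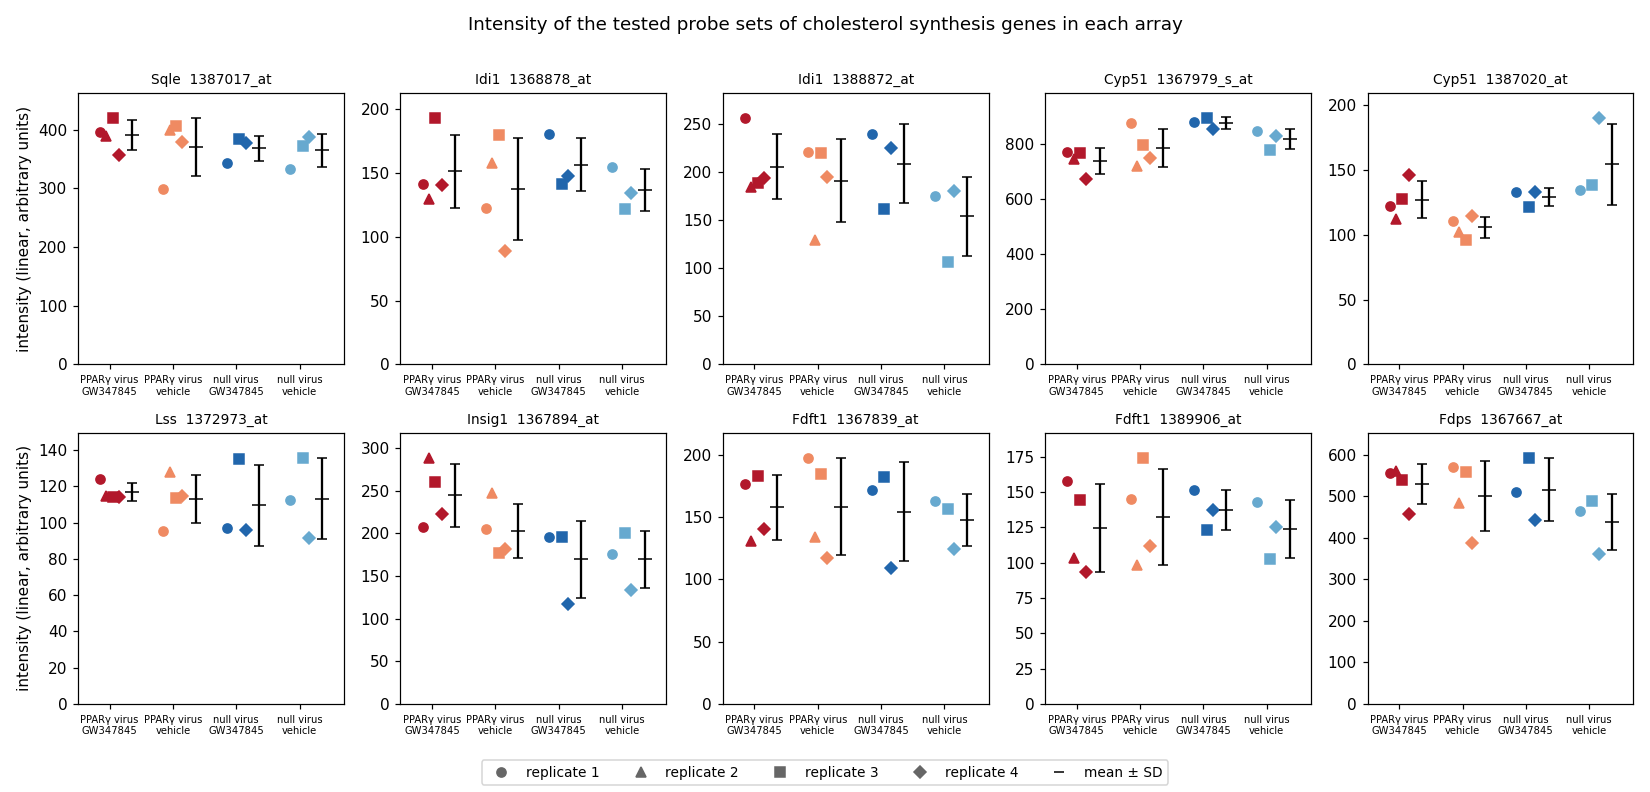
Linear array intensity (y axis, arbitrary units, from 0) of each tested probe set in PPARγ virus with GW347845, PPARγ virus with vehicle, null virus with GW347845 and null virus with vehicle; points are arrays and bars give the mean and SD (n = 4, 4, 3 and 3). Insig1 in PPARγ virus islets with GW347845 (207.5 to 288.8) sits above the 6 null virus arrays used (117.7 to 199.9), while most other probe sets overlap across the groups.

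Idi1, the isomerase that supplies the allylic isoprenoid unit, had 2 probe sets that did not move together. The brighter (1388872_at) read 255.7, 184.1, 187.9 and 193.6 in PPARγ virus islets with GW347845, 220.1, 128.6, 219.8 and 194.1 in PPARγ virus islets with vehicle, 238.9, 161.7 and 224.9 in null virus islets with GW347845, and 174.5, 106.7 and 180.4 in null virus islets with vehicle. All 4 arrays of PPARγ virus with GW347845 exceeded the 3 of null virus with vehicle that were used, and in each null virus pair the GW347845 array was the higher. The change for PPARγ virus with GW347845 against null virus with vehicle was 0.43 ± 0.22 (adjusted p = 0.643, limma). GW347845 against vehicle gave 0.44 ± 0.24 in null virus islets (3 of 3 pairs higher) and 0.12 ± 0.20 in PPARγ virus islets (2 of 4 pairs higher), and the PPARγ virus change was -0.0045 without PPARγ virus replicates 2 and 4. PPARγ against null virus with vehicle gave 0.31 ± 0.22, and 0.54 without PPARγ virus replicates 2 and 4 (adjusted p = 0.438, limma). With the replicate block the null virus change of this probe set had an adjusted p of 1.00 (limma).

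The other Idi1 probe set (1368878_at) read 141.6, 129.2, 193.0 and 140.7 in PPARγ virus islets with GW347845, 122.3, 158.1, 179.5 and 88.9 in PPARγ virus islets with vehicle, 180.3, 141.4 and 147.9 in null virus islets with GW347845, and 154.5, 121.6 and 134.3 in null virus islets with vehicle. All groups overlapped, and the change for PPARγ virus with GW347845 against null virus with vehicle was 0.13 ± 0.21, and 0.27 without PPARγ virus replicates 2 and 4 (adjusted p = 0.662, limma). The deviations of the 2 Idi1 probe sets from their group means had a Pearson r of 0.07 over the 14 arrays.

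Fdps, the enzyme that makes farnesyl diphosphate, did not pass the test in any comparison. Fdps (1367667_at) read 556.9, 561.4, 539.5 and 457.1 in PPARγ virus islets with GW347845, 569.5, 484.8, 558.6 and 387.0 in PPARγ virus islets with vehicle, 511.3, 592.9 and 441.9 in null virus islets with GW347845, and 464.9, 488.4 and 361.1 in null virus islets with vehicle. Replicate 4 was the lowest array in each of the 4 groups, and the groups overlapped in all comparisons. The change for PPARγ virus with GW347845 against null virus with vehicle was 0.28 ± 0.15 (adjusted p = 0.693, limma). With GW347845, Fdps was higher in 3 of 3 null virus pairs (0.23 ± 0.17) and in 2 of 4 PPARγ virus pairs (0.09 ± 0.14, and -0.041 without replicates 2 and 4). PPARγ against null virus with vehicle gave 0.18 ± 0.15, and 0.37 without PPARγ virus replicates 2 and 4 (adjusted p = 0.407, limma). With the replicate block the null virus change of Fdps had an adjusted p of 1.00 (limma).

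Fdft1, the enzyme that commits farnesyl diphosphate to sterols, had 2 probe sets with overlapping groups in all comparisons. The brighter (1367839_at) read 176.5, 130.8, 183.5 and 140.7 in PPARγ virus islets with GW347845, 197.9, 133.8, 184.4 and 117.4 in PPARγ virus islets with vehicle, 171.6, 182.5 and 109.1 in null virus islets with GW347845, and 163.1, 156.3 and 124.3 in null virus islets with vehicle. In PPARγ virus islets replicates 2 and 4, which had the low hormone sums, were below replicates 1 and 3 under either treatment. The change for PPARγ virus with GW347845 against null virus with vehicle was 0.09 ± 0.21, and without replicates 2 and 4 of the PPARγ virus it was 0.28 (adjusted p = 0.656, limma). The other probe set (1389906_at) ranged from 93.0 to 157.5 in PPARγ virus islets with GW347845, from 98.5 to 174.3 in PPARγ virus islets with vehicle, from 123.3 to 151.1 in null virus islets with GW347845 and from 102.4 to 143.2 in null virus islets with vehicle. Its change for PPARγ virus with GW347845 against null virus with vehicle was -0.0084 ± 0.21, and 0.29 without PPARγ virus replicates 2 and 4 (adjusted p = 0.561, limma).

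Sqle and Lss, which epoxidise squalene and close it into lanosterol, overlapped between all groups. Sqle (1387017_at) read 396.6, 390.1, 420.2 and 357.8 in PPARγ virus islets with GW347845, 298.5, 399.5, 405.9 and 379.4 in PPARγ virus islets with vehicle, 344.1, 384.1 and 377.7 in null virus islets with GW347845, and 333.3, 373.1 and 388.3 in null virus islets with vehicle. Its change for PPARγ virus with GW347845 against null virus with vehicle was 0.10 ± 0.12, with a 95% interval from -0.16 to 0.35, and 0.16 without PPARγ virus replicates 2 and 4 (adjusted p = 0.732, limma). Lss (1372973_at) read 124.0, 114.7, 113.9 and 114.3 in PPARγ virus islets with GW347845, 95.4, 127.8, 113.5 and 114.5 in PPARγ virus islets with vehicle, 97.1, 135.0 and 96.1 in null virus islets with GW347845, and 112.5, 135.8 and 91.2 in null virus islets with vehicle. Its change in the same comparison was 0.06 ± 0.15, with a 95% interval from -0.27 to 0.39. A further Lss probe set (1368086_a_at) lay between 4.8 and 14.0 on all arrays, below the limit for testing.

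Cyp51, the lanosterol demethylase, had negative mean virus changes in both of its probe sets, of -0.15 ± 0.06 in the brighter (adjusted p = 0.341, limma) and -0.27 ± 0.10 in the other (adjusted p = 0.235). Without PPARγ virus replicates 2 and 4 these were -0.078 in the brighter (adjusted p = 0.577) and -0.30 in the other (adjusted p = 0.178). The brighter one (1367979_s_at) read 771.8, 744.4, 766.2 and 670.4 in PPARγ virus islets with GW347845, 875.5, 719.8, 794.2 and 748.7 in PPARγ virus islets with vehicle, 879.7, 893.2 and 852.8 in null virus islets with GW347845, and 845.6, 777.8 and 828.9 in null virus islets with vehicle. All PPARγ virus arrays with GW347845 lay below the 6 null virus arrays used, although the left-out null virus array read 690.6. There was a change of -0.25 ± 0.09 between the viruses with GW347845 (adjusted p = 0.379, limma). Without PPARγ virus replicates 2 and 4 that change was -0.19 (adjusted p = 0.454, limma). The suffix of this probe set's name marks probes that can match several transcripts, and the rat gene table lists a Cyp51 pseudogene, so its signal may be shared.

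The other Cyp51 probe set (1387020_at) read 121.9, 112.3, 127.3 and 146.2 in PPARγ virus islets with GW347845, 110.4, 102.2, 96.3 and 114.3 in PPARγ virus islets with vehicle, 132.9, 121.2 and 133.0 in null virus islets with GW347845, and 134.5, 138.3 and 190.1 in null virus islets with vehicle. PPARγ virus arrays with vehicle were all below the null virus arrays with vehicle, and the change was -0.51 ± 0.14 (adjusted p = 0.407, limma). The brighter probe set changed by -0.06 ± 0.09 in that comparison. With GW347845 this probe set was higher in 4 of 4 PPARγ virus pairs (0.25 ± 0.13) and in 0 of 3 null virus pairs (-0.23 ± 0.14). The difference between these effects was 0.48 ± 0.19 (adjusted p = 1.00, limma), and with the replicate block its adjusted p was 0.690. For the brighter probe set the same difference was -0.18 ± 0.13, so the probe sets of Cyp51 had opposite signs.

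**Figure D3:**
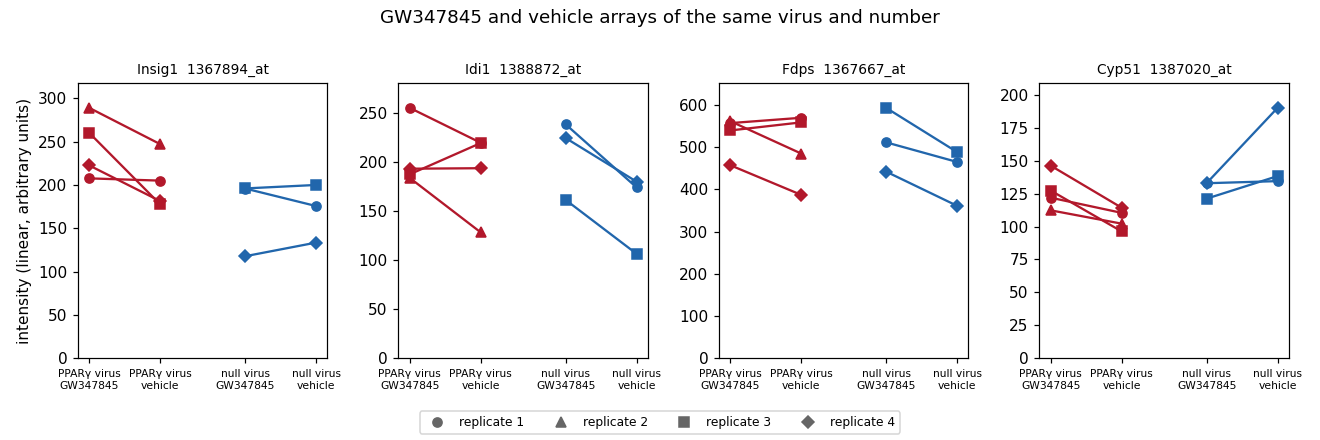
Linear intensity (y axis, arbitrary units) of Insig1, Idi1 (1388872_at), Fdps and Cyp51 (1387020_at), chosen after their values were seen, with a line joining the GW347845 and vehicle arrays of the same virus and number. Insig1 and Cyp51 (1387020_at) are higher with GW347845 in 4 of 4 PPARγ virus pairs, and Idi1 (1388872_at) and Fdps in 3 of 3 null virus pairs.

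Groups that do not overlap were also counted for the 10 probe sets. For PPARγ virus with GW347845 against null virus with vehicle, 2 were entirely higher (Insig1 and Idi1, background 4.06%) and 1 entirely lower (Cyp51 1367979_s_at, background 4.89%). For PPARγ against null virus, 1 was higher (Insig1, background 4.56%) and 1 lower (Cyp51 1367979_s_at, background 5.26%) with GW347845, and 0 were higher (background 2.45%) and 1 lower (Cyp51 1387020_at, background 2.17%) with vehicle. For GW347845 against vehicle, 0 were higher (background 0.645%) and 0 lower (background 1.15%) in PPARγ virus islets. In null virus islets Cyp51 1367979_s_at was higher (1 of 10, background 2.08%) and Cyp51 1387020_at lower (1 of 10, background 2.53%). The array left out under both labels of null virus replicate 2 bears on these counts. It read 213.0 for Insig1, 202.5 for Idi1 (1388872_at) and 690.6 for Cyp51 (1367979_s_at), inside the range of PPARγ virus with GW347845 each time, so counting it as a null virus array of either treatment would end the separation of Insig1 and Cyp51 from that group, and as a vehicle array that of Idi1. As a GW347845 array it would also end both Cyp51 separations within null virus islets, since it read 142.6 for 1387020_at. These comparisons share groups of arrays and are not independent of each other.

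Within groups, the genes differed in how much they varied between arrays. The within-group SD on the log2 scale was 0.09 for Cyp51 (1367979_s_at) and 0.14 for Sqle, against a median of 0.22 over all tested probe sets. It was 0.32 for Idi1 (1388872_at), 0.30 for Fdft1 (1367839_at) and 0.28 for Insig1. Deviations from the group means were compared across the 14 arrays as a description, since arrays of the same virus and number vary together and all share the scaling of their array. The 21 pairs of the 7 genes had Pearson r from -0.72 to 0.81 with a median of 0.12, and 11 were positive. Fdft1 (1367839_at) and Fdps, consecutive enzymes of the pathway, had the highest r, 0.81 (Spearman's rho 0.77). With the other Fdft1 probe set (1389906_at), r with Fdps was 0.34 (Spearman's rho 0.31). Idi1 (1388872_at) and Lss had the lowest, -0.72, while the other Idi1 probe set (1368878_at) had an r of -0.08 with Lss.

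**Figure D4:**
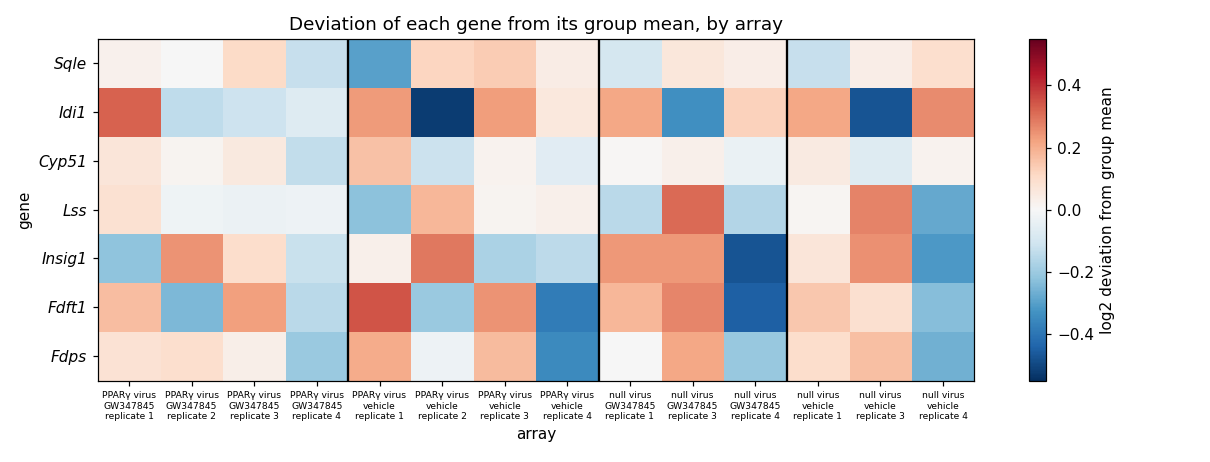
Deviation of each gene from its group mean (colour, log2 scale) in each of the 14 arrays (columns, grouped as PPARγ virus with GW347845, PPARγ virus with vehicle, null virus with GW347845 and null virus with vehicle), 1 probe set per gene. Fdft1 and Fdps are low in replicate 4 of every group, and Insig1 is low in replicate 4 of both null virus groups.

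The likeness of other genes to these 7 was ranked by Pearson r over the 14 arrays between a gene's deviations and the mean standardised deviation of the 7 genes. The 10 most alike were Sppl3 (r = 0.97), Tbcel, Ptgr3, Abcc5, Dap, Nelfa, Efr3a, Ipmk, LOC102548047 and Gpatch8 (r = 0.89), and none of these is on a pathway list used here. The 39 pathway genes had r from -0.45 (Lrp1) to 0.76 (Srebf1, rank 138 of 8478 probe sets), with a median of 0.21, and 28 were positive. Ebp, with r = -0.0085, held rank 4541, so a positive r was also common among all ranked probe sets. Whether the pathway genes differed from the rest was not tested.

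Of 16 other genes of mevalonate and sterol synthesis, 13 were tested, and 0 rose and 0 fell in any of the 8 comparisons, with no median change above 0.10 on the log2 scale. Without PPARγ virus replicates 2 and 4, an alternative chosen after seeing the data, Acat1 rose in 3 comparisons and the other 12 did not pass the test. The 3 were PPARγ virus with GW347845 against null virus with vehicle, PPARγ against null virus with GW347845, and the mean virus effect. In that order, this refit called 77, 91 and 418 of all tested probe sets, against 67, 71 and 154 in the main fit. The p-values of the mean virus effect are likely too small, as stated above. Acat1 is on this list as an acetyl-CoA thiolase, but it is the mitochondrial one, and the cytosolic thiolase of the mevalonate pathway is Acat2. Acat1 averaged 582 ± 231 in PPARγ virus islets with GW347845 (SD, n = 4) and 326 ± 29.4 in null virus islets with vehicle (SD, n = 3). Its change was 0.74 ± 0.26 (adjusted p = 0.368, limma), and these groups overlapped. Without PPARγ virus replicates 2 and 4 its change was 1.25 (adjusted p = 5.8e-04, limma), in a fit that called 77 of all tested probe sets. Mvd, which makes isopentenyl diphosphate, had a mean virus change of 0.39 ± 0.16 (adjusted p = 0.323, limma), and of 0.61 without those replicates (adjusted p = 0.071).

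Of 9 genes of sterol sensing and SREBP processing, 8 were tested and 0 passed the test. Srebf1 averaged 188 ± 23.6 in PPARγ virus islets with GW347845 and 194 ± 28.5 in null virus islets with vehicle, a change of -0.04 ± 0.15, and 0.060 without PPARγ virus replicates 2 and 4. Srebf2, the SREBP most tied to cholesterol synthesis, averaged 161 ± 42.0 and 140 ± 50.6 in the same groups, a change of 0.22 ± 0.27, and 0.48 without those replicates (adjusted p = 0.541, limma). Scap, the escort protein that Insig1 binds, averaged 224 ± 12.7 with PPARγ virus and 167 ± 24.1 with null virus, both with GW347845. These groups did not overlap (background 4.56%), and the change was 0.42 ± 0.14 (adjusted p = 0.261, limma). For PPARγ virus with GW347845 against null virus with vehicle, the Scap change was 0.17 (adjusted p = 0.826, limma). PPARγ against null virus with vehicle gave 0.02, and GW347845 against vehicle in null virus islets gave -0.25.

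Of 13 genes of LDL uptake and intracellular cholesterol transport, 8 were tested and 0 passed the test. Soat1, which esterifies cholesterol for storage, had the largest change of them. It averaged 634 ± 54.0 in PPARγ virus islets with GW347845 (n = 4) and 392 ± 135 in null virus islets with vehicle (n = 3; SD), without overlap (background 4.06%). That change was 0.75 ± 0.21 (adjusted p = 0.184, limma), and the mean virus change was 0.50 ± 0.15 (adjusted p = 0.129).

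Of 10 SREBP targets of fatty acid synthesis, all were tested and 1 rose, in 2 comparisons in which 0.665% and 1.53% of all tested probe sets were called. Elovl5, which elongates polyunsaturated fatty acids, averaged 858 ± 75.6 in PPARγ virus islets with GW347845 (n = 4) and 598 ± 54.3 in null virus islets with vehicle (n = 3; SD). It rose by 0.52 ± 0.10 (adjusted p = 0.0295, limma), without overlap (background 4.06%), and its mean virus change was 0.34 ± 0.07 (adjusted p = 0.0302). Without PPARγ virus replicates 2 and 4 these changes were 0.57 (adjusted p = 0.0585) and 0.38 (adjusted p = 0.0311). The mean virus change was not called in 10 of 27 settings (adjusted p from 0.00335 to 0.0873, limma). Over all settings the adjusted p of the rise for PPARγ virus with GW347845 against null virus with vehicle ranged from 0.00268 to 0.190. For that rise, 8 of 28 settings did not call it. Among them were those without null virus vehicle replicate 1 or 3 (log2 changes of 0.45 and 0.53). Also among them were those without PPARγ virus GW347845 replicate 1, 3 or 4 (log2 changes of 0.52, 0.48 and 0.49). The other 9 did not pass the test, and 9 of the 10 fitted changes in that comparison were below 0, with a median of -0.16 beside -0.03 over all tested probe sets. Without PPARγ virus replicates 2 and 4 the list's median was -0.042. Fasn, fatty acid synthase, averaged 429 ± 33.7 in PPARγ virus islets with GW347845 and 501 ± 30.9 in null virus islets with GW347845, a change of -0.22 ± 0.11 (adjusted p = 0.580, limma). Its change between the viruses with vehicle was -0.26, and its mean virus change was -0.24 (adjusted p = 0.166, limma). Without PPARγ virus replicates 2 and 4 the mean virus change of Fasn was -0.33 (adjusted p = 0.0526, limma).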

How the data were processed

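Intensity values per probe set were deposited by the authors on a linear scale, without detection calls. The file's values show that each array had been scaled: the mean after trimming 2% at each end was 150.031 to 150.035 in every column, so the values were used as deposited. The summarising software is not given in the sources used here. Columns were assigned to groups by their labels alone.

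The 2 identical columns of null virus replicate 2 were left out, which leaves 14 arrays. Log2(intensity + 4.6) was fitted with limma 3.58.1 (R 4.3.3), with 4 group means, a trended variance and Benjamini-Hochberg adjustment over 10078 probe sets, those above 39.3 (the 40th percentile) in at least 4 arrays. The pseudocount was the 10th percentile of positive values. The code was tested on simulated data. An array gives no count, so the number of arrays limits the precision. Of the tested probe sets, 8488 had 1 gene symbol, 235 several and 1355 none.

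The brightest probe set stands for a gene, and the members are named in every comparison. Other genes named are Pparg, Srebf1, Srebf2, list genes past the threshold and the 10 most alike; Acat1, Mvd, Scap, Soat1, Fasn and Lrp1 were chosen after their values were seen. The members and lists were chosen with earlier results of these data known. Arrays of the same virus and number deviated together (7 pairs, r from 0.445 to 0.702), but across viruses only the arrays of number 1 did in every pair (4 pairs, r from 0.299 to 0.433, against -0.139 to 0.128 for the 8 pairs of numbers 3 and 4), so the replicate block was fitted within each virus. Alternatives changed the pseudocount, filter, normalization, probe set, block and arrays used.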

Additional observations from a re-analysis of the deposited data

Results flagged for a closer look

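Values of a single array far from the other 3 of its group were looked for in the 20 groups of 4 arrays (10 probe sets in both PPARγ virus groups) with Dixon's test, which flags about 1 in 20 groups by chance, and 2 were found. Idi1 (1388872_at) read 255.7 in replicate 1 of PPARγ virus with GW347845, against 184.1 to 193.6 in the other 3 arrays. Lss (1372973_at) read 124.0 in the same array, against 113.9 to 114.7 in the others.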

How the results depend on the processing

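No probe set of the 7 genes passed the threshold in any of 225 fits, over 29 settings and 8 comparisons, and the lowest adjusted p was 0.122. The median change of the 7 genes moved by more than the spread between replicates in 4 fits. Leaving out each array in turn, it ranged from -0.014 to 0.22 for GW347845 against vehicle in null virus islets and from -0.20 to 0.10 for the difference in the compound's effect between the viruses, and the extremes of 0.22 and -0.20 came without null virus replicate 4 with GW347845. Without both arrays of PPARγ virus replicates 2 and 4, an alternative chosen after seeing the data, it was 0.28 for PPARγ virus with GW347845 against null virus with vehicle and 0.24 for the mean virus effect, against 0.10 and 0.06 with all arrays; the cause was not tested. The Cyp51 difference between the viruses was 0.48 by its other probe set, against -0.18. With the replicate block within each virus, 0 of 10 probe sets were called, and the counts over all probe sets were 40 for GW347845 against vehicle in PPARγ virus islets, 0 in null virus islets, 5 for the difference and 14 for the mean compound effect, against 6, 0, 0 and 2 without it. Over the settings other than leaving out 1 array, counts over all probe sets ranged from 42 to 177 for PPARγ virus with GW347845 against null virus with vehicle, from 43 to 211 and from 1 to 34 for PPARγ against null virus with GW347845 and with vehicle, from 2 to 40 for GW347845 against vehicle in PPARγ virus islets, and from 117 to 418 for the mean virus effect. Leaving out 1 array gave 40 to 73, 31 to 75, 3 to 7, 2 to 7 and 76 to 134 for the same comparisons. Arrays give no counts, so depth sets no limit here, and the signal of the faint Lss probe set did.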

Other observations

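The array deposited under both labels of null virus replicate 2 was left out of the main fit, and some alternative settings kept it. For Insig1 it read 213.0, above the 117.7 to 199.9 of the other 6 null virus arrays, and for Sqle 388.9, beside 333.3 to 388.3. For Idi1 (1388872_at) it read 202.5, within 106.7 to 238.9. For the brighter Cyp51 probe set it read 690.6, below the 777.8 to 893.2 of the other null virus arrays. For Fdps it read 530.0, within 361.1 to 592.9, and for Lss (1372973_at) 134.1, within 91.2 to 135.8.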
